A study of Mus musculus with 32 samples.

Results

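The 8 tumors described here grew from AB1, a mouse mesothelioma cell line, in the pleural space of 8 mice, and are called AB1 IPL tumors. They were chosen by their sample titles, which give the cell line, the site and a mouse number from 1 to 8, and they are 8 of the 32 tumors of the series. The hosts were female BALB/c mice aged 8 to 10 weeks. Each received 500000 AB1 cells into the pleural space, no treatment was given, and tumor and surrounding tissue were harvested on day 10. Per the study's methods the lungs and adjoining tissue were then taken off before the tumor went into preservative. How much host tissue stayed on each tumor is not given in the sources used here. The question asked of them is which genes, tissues and immune programs differed from one mouse to the next under one nominal condition, and which of these differed together. All 8 libraries were run on lane 3, so no comparison between lanes enters.

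The AB1 line stands in for mesothelioma, a cancer of the cells that line the chest wall and lungs. Pleural tumors grow against muscle of the chest wall and diaphragm, ribs, fat and the mesothelial lining, and they draw in macrophages, T cells and B cells. Skeletal muscle, red cells, cartilage, fat and plasma cells each make a few transcripts in great amounts that the other cells hardly make. Such genes can follow how much of a tissue is in a sample, which was not measured here. In bulk RNA, fewer cells of a type and less RNA per cell cannot be told apart.

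Total counts ran from 17212485 to 20649645 per tumor, with a median of 18934094, and a count of 3 corresponded to 0.142 to 0.179 CPM (counts scaled to library size), which covers counting error only. Every one of the 28 pairs of tumors differed by far more than counting noise, with a chi-square per degree of freedom of 20.85 to 148, so no library was a copy of another. Tumor 4 stood apart in the kind of gene it read. In tumor 4, the 10% of genes with the highest GC content were 1.43 log2 units higher, relative to the 10% with the lowest, than on average, while the other tumors lay between -0.51 and 0.27. Its long genes were low relative to short ones by a difference of -0.48, against -0.22 to 0.27 elsewhere.

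Of 13255 genes with enough counts to test, 708 (5.34%) varied among the tumors by more than the trend for genes of their level. The test asked whether a gene's counts scattered more than the trended dispersion of edgeR allows, with Benjamini-Hochberg adjusted p under 0.05, and 1462 genes had an unadjusted p under 0.05. Spread is given as the biological coefficient of variation (BCV), the spread between tumors after counting noise is taken out. The trend stood at a BCV of 31.5% for genes at 1 CPM and 23.5% at 100 CPM. Over all tested genes the median SD of log2 CPM was 0.27, and over the 708 it was 0.94. The call depends on how the spread is modeled: limma, applied to the variances of log2 CPM, called 0 genes, with 705 at an unadjusted p under 0.05, and DESeq2 marked 123 dispersion outliers, all of them among the 708.

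**Figure D1:**
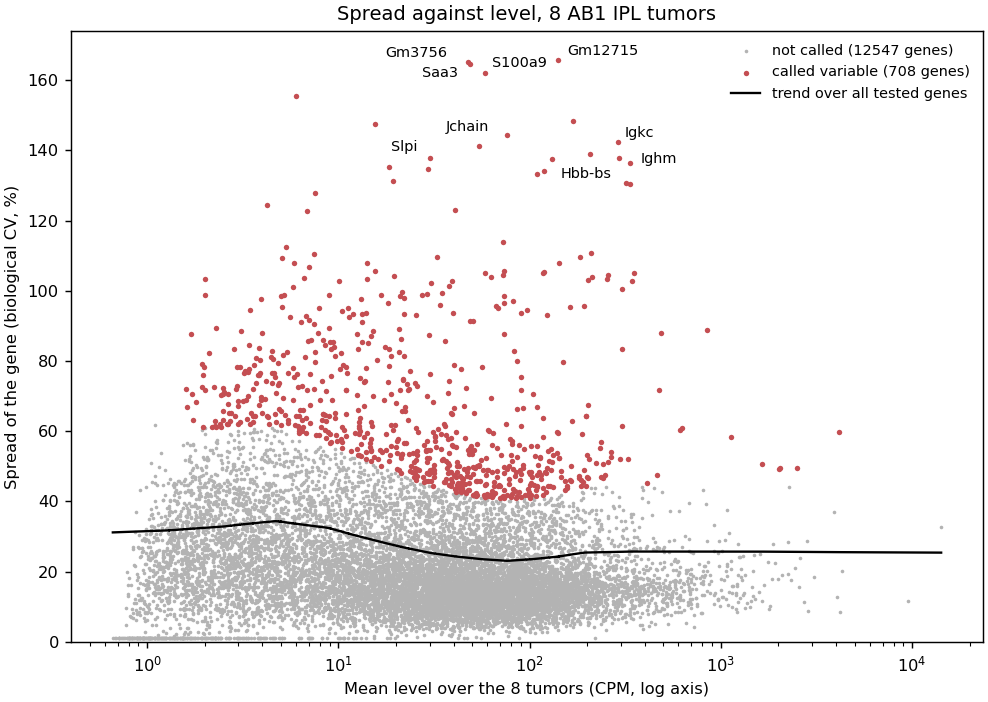
Each point is 1 of 13255 genes, with its mean level over the 8 AB1 IPL tumors in CPM on a log axis and its spread as biological coefficient of variation in percent, and the line is the trend over all genes. The 708 called genes (red) lie above the trend at every level, with S100a9, Saa3, Gm3756 and Gm12715 above 160%.

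The 20 genes with the largest spread relative to the trend fell into a few kinds. They were the neutrophil protein gene S100a9, the globins Hbb-bs, Hbb-bt, Hba-a1 and Hba-a2, the antibody genes Jchain, Igkc and Ighm, the secreted acute-phase or defence proteins Saa3, Hp and Slpi, the collagenase Mmp13, and 8 processed pseudogenes. S100a9 had the largest, 47.6 times the trend dispersion, with a lowest level of 0.593, a median of 26.6 and a highest of 231 CPM (adjusted p = 2.48e-80). Saa3 was at 334 CPM in tumor 2 and between 1.83 and 19.2 CPM in the other 7 (adjusted p = 2.87e-86). Mmp13 was at 215 CPM in tumor 3 and at 2.36, 1.85 and 1.62 CPM in tumors 2, 6 and 8 (adjusted p = 3.11e-58). All 20 were also dispersion outliers in DESeq2 and were called after correction of each library for GC content and gene length. With single tumors left out, Gm3756 and Gm12715 kept their call in 7 of 8 repeats and the others in all 8. In these repeats 1 call was lost without tumor 5 and 1 without tumor 6.

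To see which tissues these genes belong to, 42 marker lists were scored. A list score is the mean log2 CPM of its members, centered on the 8 tumors, and a list of mitochondrially encoded genes had no member analysed here, which left 41. The score ranged over at least 2 log2 units, a 4-fold change, in 18 lists and over less than 1 unit in 6. Tumor 2 had the highest score in 14 lists and tumor 8 the lowest in 15. The widest ranges were those of red cell genes, fast skeletal muscle, mesothelium, cartilage and bone, and antibody genes. The narrowest were those of regulatory T cells, with a 1.31-fold range, and the cell cycle, with a 1.36-fold range. These lists were drawn up with earlier results of the data known.

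**Figure D2:**
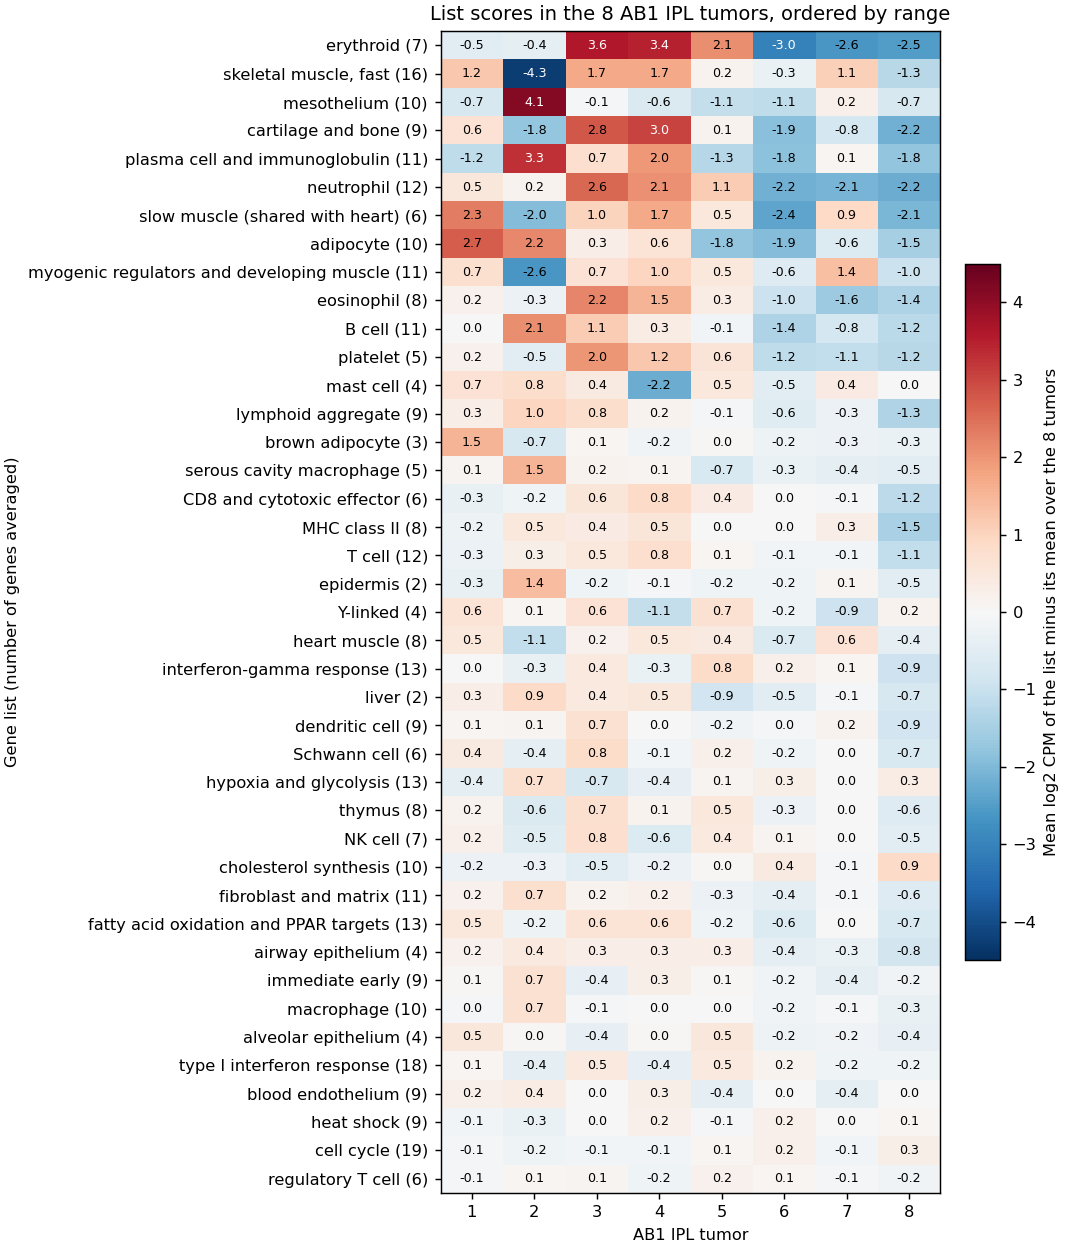
Rows are 41 gene lists with the number of genes averaged, columns are the 8 AB1 IPL tumors, and the color and number give the list score in log2 units relative to its mean over the tumors. Erythroid, muscle, skeletal and neutrophil scores are high in tumors 3 and 4, mesothelial and antibody scores in tumor 2, and tumor 8 has the lowest score in 15 lists.

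Skeletal muscle genes varied as a block. Muscle fibers are packed with contractile and energy-buffering proteins, and fast and slow fibers use different members of the myosin and troponin families. All 15 tested genes of the fast-muscle list were called variable (100%, against 5.34% of all genes). Tnnc2, the only other member, had too few counts for that test. Ckm, the muscle creatine kinase, was at 322, 7.08, 487, 611, 132, 155, 268 and 55.8 CPM in tumors 1 to 8, a mean of 255 ± 211 (SD, n = 8). Tumor 2 was lowest and tumor 8 next, and tumors 1, 3, 4 and 7 were highest. Myl1, a fast myosin light chain, ran from 2.14 CPM in tumor 2 to 168 CPM in tumor 3 around a median of 74.9 CPM, at 20.9 times the trend dispersion (adjusted p = 1.06e-29). The myosin heavy chains Myh1 and Myh2 both had their lowest value, 3.29 CPM, in tumor 2, and reached 453 and 354 CPM in tumor 3. Pvalb, the calcium buffer parvalbumin, reached 85.2 CPM in tumor 4 and was at 1.65 CPM in tumor 2. The list score spanned 62.1-fold, all 15 calls stood whichever tumor was left out, and without tumor 2 the range fell from 5.96 to 2.95 log2 units.

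Promoters of the muscle genes are shown because these genes varied together. The window is 250 bases before to 50 after the gene start in RefSeq (GRCm38.p6). The letters CAGCTG, the core E-box that myogenic factors such as MyoD can bind, read the same on both strands, and TATAAA was looked for on both strands. CAGCTG was present in 7 of the 13 fast-muscle promoters that could be matched (53.8%), against 16.1% of all 27025 promoters. TATAAA was present in 5 of the 13 (38.5%), against 14.2%. The 250 bases before the start are printed 5′ to 3′ for the list's reference gene and for its pair of genes with the largest spread, with matches to either motif in capitals.
Ckm, plus strand, chr7:19410844-19411093: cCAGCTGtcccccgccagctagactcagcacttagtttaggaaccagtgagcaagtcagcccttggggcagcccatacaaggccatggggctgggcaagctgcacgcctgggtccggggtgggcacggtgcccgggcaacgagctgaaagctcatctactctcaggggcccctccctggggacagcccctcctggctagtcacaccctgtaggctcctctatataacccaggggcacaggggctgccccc
Myl1, minus strand, chr1:66945057-66945306: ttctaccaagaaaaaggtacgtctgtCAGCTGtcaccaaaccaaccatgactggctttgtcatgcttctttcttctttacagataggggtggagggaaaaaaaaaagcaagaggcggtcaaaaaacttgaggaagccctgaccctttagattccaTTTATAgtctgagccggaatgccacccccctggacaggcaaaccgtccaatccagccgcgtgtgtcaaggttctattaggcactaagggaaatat
Myh1, plus strand, chr11:67199852-67200101: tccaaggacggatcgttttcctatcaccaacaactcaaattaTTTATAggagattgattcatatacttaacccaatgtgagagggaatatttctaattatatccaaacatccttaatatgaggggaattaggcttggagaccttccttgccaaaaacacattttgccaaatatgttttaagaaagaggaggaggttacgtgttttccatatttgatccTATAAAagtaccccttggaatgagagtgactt
Ckm and Myl1 each hold 1 CAGCTG, starting 249 and 224 bases before the gene start. Myl1 and Myh1 hold TATAAA on one or both strands, where TTTATA is its reverse complement, Ckm holds no TATAAA and Myh1 no CAGCTG. A match is a string of letters in the sequence and was not tested as a binding site.

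Genes that rose and fell with Ckm across the 8 tumors were sought in 1 limma fit over all other 13254 genes. There were 80 genes (0.604%) that rose with Ckm and 5 (0.0377%) that fell, and 591 genes had an unadjusted p under 0.05. All 14 other tested members of the fast-muscle list rose with it. The smallest p belonged to Scn4a, the muscle sodium channel, Eef1a2, the muscle and nerve form of an elongation factor, Ankrd23, Atp2a1, the calcium pump of fast fibers, and Unc45b, a myosin chaperone. Eef1a2 rose by 1.05 ± 0.0507 log2 units (SE) per log2 unit of Ckm (adjusted p = 2.65e-05). Those that fell were G530011O06Rik, Gm9794, Bnip3, Gm16439 and Hal. Bnip3, which hypoxia induces, was at 131 CPM in tumor 2, 99.2 CPM in tumor 8 and 32.9 to 77.9 CPM in the others. Without tumor 2, 324 genes rose and 39 fell with Ckm, and 63 of the first 85 genes were among them.

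Slow muscle genes were highest in tumor 1. Myh7, the slow myosin heavy chain that heart also uses, was at 65.6, 0.658, 15.7, 35.6, 11.8, 0.657, 15 and 1.19 CPM in tumors 1 to 8, so tumors 2, 6 and 8 were lowest and tumor 1 was highest. Tnnt1 and Tnnc1, troponin subunits of slow fibers, were also called and also highest in tumor 1, at 24.5 and 11.5 CPM, though Tnnc1 was not called with the looser filter of at least 10 counts in 1 tumor. Myh6, which is best known from the heart, reached 34.1 CPM in tumor 1 and was at 1.02 CPM or less in tumors 2, 6 and 8. The other members of the heart list differed among themselves. Myl4, a light chain of the atrium and of developing muscle, was the only 1 of 3 tested that was called (33.3%, against 5.34% of all genes). It ran from 3.57 CPM in tumor 2 to 53.9 CPM in tumor 7 (adjusted p = 2.63e-07). Tnnt2, cardiac troponin T, ran from 0.165 CPM in tumor 2 to 17.8 CPM in tumor 7, and Tnni3 and Mybpc3 stayed at 1.54 to 3.81 and 0.618 to 1.22 CPM. Nkx2-5 was at 0 in all 8 tumors, and Nppa stayed at or under 0.189 CPM. Myog, which drives new fiber formation, ran from 0.165 CPM in tumor 2 to 14.2 CPM in tumor 7, with a median of 7.21 CPM. Myh8, a myosin of developing muscle, was called (adjusted p = 2.05e-28) and reached 141 CPM in tumor 3 from 1.7 CPM in tumor 2. Metabolic genes that muscle uses heavily varied as well, with Pdk4, a brake on glucose oxidation, between 3.89 and 163 CPM and Fabp3, a fatty acid carrier of muscle, between 0.987 and 25.8 CPM. The other 8 tested genes of the list of fatty acid oxidation and PPAR targets were not called, so 20% of that list was, against 5.34% of all genes.

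Red cell genes had the widest range of any list, 98.5-fold. Hbb-bs, an adult beta globin, was at 90.4, 183, 836, 913, 274, 9.92, 20.8 and 13.7 CPM in tumors 1 to 8. The order was tumors 3 and 4 on top, then 5, then 2 and 1, with 6, 7 and 8 together at the bottom. All 4 tested globin genes were called (100%, against 5.34% of all genes), and their counts are not independent. Of the 50-base windows of the longest Hbb-bs transcript, 65.8% recur unchanged in Hbb-bt, and 86.9% of those of Hba-a2 recur in Hba-a1. Genes of red cell precursors, which were on in too few tumors for the main test, followed the same split. Slc4a1, the anion exchanger of the red cell membrane, was at 89.6, 82.4 and 33.2 CPM in tumors 3, 4 and 5 and at 1.52 CPM or less in the other 5. Alas2, the first enzyme of heme synthesis in red cells, was at 32.6, 36.2 and 11.6 CPM in tumors 3, 4 and 5 and at 4.06 CPM or less in the others.

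To include such genes, the test was repeated on the 16694 genes with at least 10 counts in at least 1 tumor, a choice made after the data were seen. It called 1105 genes (6.62%), among them 495 of the 708. A gene that entered only through the tumors where it was high had to differ, so the values of such genes are given as a description, with no count and no p. Ngp, a granule protein of immature neutrophils, was at 129, 93.3 and 31 CPM in tumors 3, 4 and 5, 14 CPM in tumor 1 and at most 0.274 CPM in tumors 2, 6, 7 and 8. Ltf, lactoferrin of neutrophil granules, was at 103, 62.1 and 24.2 CPM in tumors 3, 4 and 5. S100a8, the partner of S100a9, was at 130, 77.5 and 32 CPM there and at 0.717 CPM or less in tumors 6, 7 and 8. Other members of the neutrophil list had another order. Csf3r, Cxcr2, Lcn2, Il1r2 and Hdc were highest in tumor 2, where Lcn2 was at 53.8 CPM and Csf3r at 53 CPM, and Mmp9 was highest in tumor 8 at 217 CPM. Of 5 neutrophil genes in the main test S100a9 and Hdc were called (40%, against 5.34% of all genes). Without tumor 4, 4 of 5 passed, against 4.1% of all genes. Prg2 and Epx, granule proteins of eosinophils, reached 47 CPM in tumor 3 and 11.4 CPM in tumor 4. Ppbp, a platelet chemokine, was at 33.5, 11.9 and 8.25 CPM in tumors 3, 4 and 5 and at 2.38 CPM or less in the others.

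Genes of cartilage and bone were high in tumors 3 and 4 as well. Both genes with enough counts for the main test, Comp and Chad of the cartilage matrix, were called (100%, against 5.34% of all genes). They were at 19 and 11.6 CPM in tumor 4, with lowest levels of 0.808 and 1.04 CPM. Comp grouped with the muscle genes in the modules described below. Col2a1, the main collagen of cartilage, was at 37.6 CPM in tumor 3, 47.4 CPM in tumor 4, 2.68 CPM in tumor 1 and at most 0.33 CPM in the other 5. Bglap, osteocalcin, was at 59.9, 30.1, 22.7 and 8.81 CPM in tumors 3, 4, 5 and 1 and at most 0.283 CPM in the rest. Ibsp, bone sialoprotein, was at 58.4, 19.9, 18.6 and 12.5 CPM in those 4, and Cnmd, chondromodulin, reached 1.68 CPM. Rag1, which immature lymphocytes use to cut their receptor genes, was highest in tumor 3 at 4.48 CPM, with 1.61 CPM in tumor 5. Foxn1 and Ptcra of the thymus stayed at or under 0.221 CPM in all 8, while Ccl25 and Prss16 of the same list were at 7.26 to 15.6 and 0.701 to 1.37 CPM and Arpp21 reached 2.53 CPM.

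**Figure D3:**
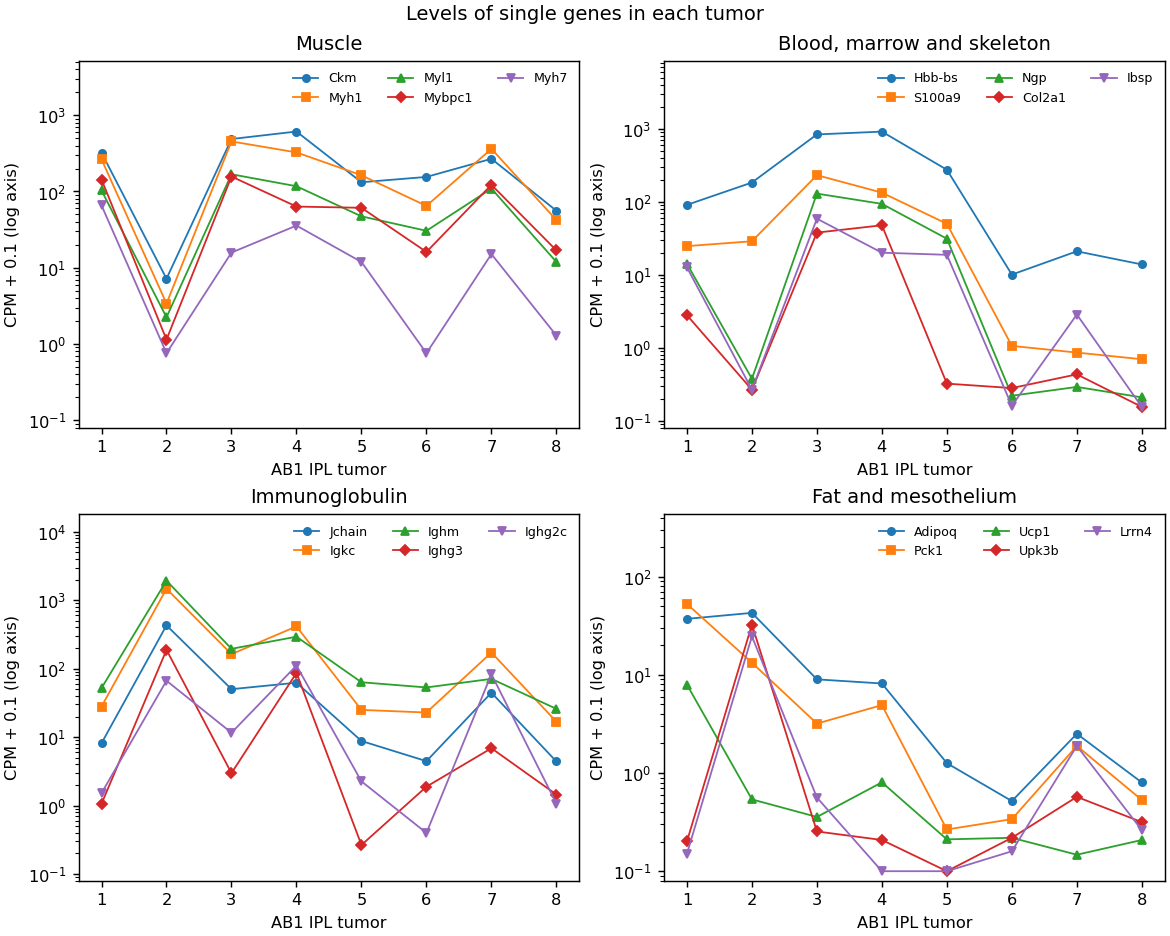
Each line is 1 gene across the 8 AB1 IPL tumors, in CPM plus 0.1 on a log axis, in 4 panels. Muscle genes dip in tumor 2, where antibody and mesothelial genes peak, blood and skeletal genes are high in tumors 3, 4 and, for most, 5, and fat genes are high in tumors 1 and 2.

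Mesothelial genes were read mainly in tumor 2. Upk3b, a surface marker of mesothelium, was at 32.4 CPM in tumor 2 and between 0 and 0.472 CPM in the other 7. Lrrn4, another mesothelial gene, was at 24.6 CPM there and at most 1.79 CPM elsewhere, in tumor 7. Muc16, the CA125 mucin, was at 4.55 CPM against at most 0.0943 CPM, and Nkain4 at 10.6 CPM against at most 0.142 CPM. Wt1, a transcription factor of mesothelium, was at 11.3 CPM in tumor 2 with a median of 0.703 CPM. In the main test Pdpn was the only mesothelial gene with enough counts, at 74.9 to 210 CPM, and 0 of 1 was called. The score of the 10 genes spanned 5.27 log2 units with tumor 2 and 1.39 without it. Over the 8 tumors the medians of Krt7, Gpm6a and Rspo1 were 1.09, 0.316 and 0.3 CPM, and those of Upk3b, Lrrn4, Muc16 and Nkain4 were under the floor of 3 counts. Whether AB1 cells or host cells made these transcripts was not tested.

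Antibody genes were highest in the same tumor. Jchain, which joins antibody units into polymers, was at 8.05, 429, 50.1, 62.3, 8.69, 4.36, 44.5 and 4.31 CPM in tumors 1 to 8 (adjusted p = 5.13e-68). Igkc, the kappa constant region, was at 1470 CPM in tumor 2, 414, 172 and 163 CPM in tumors 4, 7 and 3, and 27.9 CPM or less in the others. Ighm was at 1930 CPM in tumor 2 and 25.8 to 293 CPM elsewhere. Ighg3 and Ighg1 were also highest in tumor 2, at 188 and 154 CPM, whereas Ighg2b was highest in tumor 4 at 41.8 CPM, and Ighg2c was highest in tumor 4 at 111 CPM, then tumor 7 at 83 CPM and tumor 2 at 66.6 CPM. BALB/c antibody alleles differ from the reference strain, so the class named Ighg2c is uncertain. Of 5 tested genes, 4 were called (80%, against 5.34% of all genes), and Sdc1 was not. With Jchain as the reference in limma, 2108 genes had an unadjusted p under 0.05, and 2 genes of 13254 (0.0151%) rose, Igkc and Slpi, and 0 fell (0%). After correction of each library for GC content and length 755 genes passed, and without tumor 1, 104.

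Variable segments were counted by their names in the reference annotation, which BALB/c alleles make uncertain in the same way. How well 50-base reads separate similar segments was not tested. In tumor 2, 94 of 113 heavy chain V segments and 90 of 100 kappa V segments had at least 3 counts. The top heavy segment there held 9.47% of 8023 counts. The number of segments reached can depend on the counts read, and tumor 3 had 66 of 113 with 919 heavy chain counts. In tumor 7 the pattern was narrow: Igkv10-96 held 61.2% of 2703 kappa counts and Ighv9-3 held 42.1% of 1755 heavy chain counts. In tumor 4, Ighv2-3 held 38.2% of 2780 counts. Tumors 1, 5, 6 and 8 had 73 to 147 heavy chain counts each, too few to describe.

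Other genes peaked in tumor 2 as well. In the B cell list Ighm, Cd79b and Fcrla were called (50% of 6, against 5.34% of all genes), and with the looser filter Cd79b and Fcrla were not. Cd79b, part of the B cell receptor, was at 16.9 CPM in tumor 2 and 1.67 to 8.49 CPM elsewhere. Cxcl13, the chemokine that draws B cells into follicles, was at 74.3 CPM in tumor 2 against 10.6 to 49.6 CPM. Macrophage genes of serous cavities were highest there too: Lyve1 was at 21.6 CPM against 1.27 to 5.15 CPM, and Alox15 at 12 CPM against 0.991 to 4.43 CPM, and both were called, though Alox15 was not with the looser filter. Without tumor 2, 0 of 5 serous macrophage genes and 0 of 10 macrophage genes were called, while 3 B cell genes were. Cd163, a scavenger receptor of macrophages, was at 44.3 CPM against 4.9 to 15.9 CPM, while C1qa, which most macrophages make, differed by 2.24-fold over the tumors and was not called. Vwf, made by endothelium, and Fbln1, a matrix protein, were the only called genes of their lists (11.1% and 9.09%, against 5.34% of all genes). Both were also highest in tumor 2, at 38.2 and 64.1 CPM.

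Fat genes were highest in tumors 1 and 2. Adipoq, the hormone adiponectin made by adipocytes, was at 37.1, 42.7, 8.9, 8.07, 1.16, 0.418, 2.41 and 0.701 CPM in tumors 1 to 8. All 4 tested adipocyte genes were called (100%, against 5.34% of all genes). They were led by Car3, a carbonic anhydrase abundant in fat, at 9.14 to 288 CPM (adjusted p = 2.77e-28). Pck1 separated the pair, at 52.7 CPM in tumor 1 and 13.2 CPM in tumor 2. Ucp1, the heat-producing uncoupler of brown fat, was at 7.84 CPM in tumor 1 and at most 0.704 CPM elsewhere. Hp, haptoglobin, was at 443 and 408 CPM in tumors 1 and 2 and 8.84 to 88.6 CPM in the others.

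Genes of the T cell list and most of the MHC class II and CD8 lists were lowest in tumor 8, though few were called. H2-Oa of class II was lowest in tumor 5 and Eomes of the CD8 list in tumor 2. Of the regulatory T cell genes only Foxp3 was lowest in tumor 8. H2-Eb1, an MHC class II chain, was at 113 CPM in tumor 8 and 339 to 673 CPM in the other 7 (adjusted p = 0.0194). It was the only 1 of 8 class II genes called (12.5%, against 5.34% of all genes), 0 were called without tumor 8, 5 were called without tumor 4, and 6 were called after correction for GC content and length. H2-Aa followed it, at 132 CPM against 343 to 649 CPM (adjusted p = 0.0656). Cd8a, the CD8 chain of cytotoxic T cells, was at 3.18 CPM in tumor 8, 8.4 to 24.6 CPM in the others, and was highest in tumors 3 and 4 (adjusted p = 0.00433). It was the only 1 of 5 CD8 and effector genes called (20%, against 5.34% of all genes). In that list 0 were called without tumor 8 or with the looser filter, and 3 after the GC and length correction. Cd3e, shared by all T cells, ran from 1.56 CPM in tumor 8 to 10.7 CPM in tumor 4, and none of the 12 T cell genes was called, against 3 after that correction. The 6 regulatory T cell genes were not called either, with Foxp3 between 3.45 and 6.86 CPM.

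Among 13 tested genes induced by interferon-gamma, 3 were called (23.1%, against 5.34% of all genes). Ido1, which breaks down tryptophan, was at 30.1 CPM in tumor 5 and 2.85 to 11.1 CPM in the others (adjusted p = 5.75e-05), and Gbp3 and Gbp4, guanylate-binding proteins, were also highest in tumor 5. Without tumor 5, 0 of 13 were called, and without tumors 2 and 4, 9 were. Cxcl9, a chemokine that draws T cells, ran from 103 CPM in tumor 8 to 366 CPM in tumor 5 and was not called, and 0 genes rose (0%) and 0 fell (0%) with it by limma, with 289 at an unadjusted p under 0.05. Of 18 type I interferon genes, Ifi44 and Ifit2 were called (11.1%, against 5.34% of all genes), and both were lowest in tumor 4, at 20.5 and 14.6 CPM. Without tumor 4, 1 of the 18 was called, and after the GC and length correction 0. The anchor of that list, Ifit1, was at 14.2 to 42.8 CPM and was not called.

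Tumor 8 was also highest in genes of cholesterol synthesis. Idi1, an enzyme of the mevalonate pathway, was at 280 CPM in tumor 8, 44.4 CPM in tumor 4 and 82.2 to 159 CPM in the others (adjusted p = 0.00115). It was the only 1 of 10 genes called (10%, against 5.34% of all genes). The other 9 were each highest in tumor 8 without passing the test. Without tumor 8, 0 of 10 were called, and without tumors 2 and 4, 6 were. Vegfa, which drives vessel growth under low oxygen, was at 144 CPM in tumor 8 and 43.2 to 86.4 CPM elsewhere (adjusted p = 0.0442), and it kept its call in 2 of 8 repeats with 1 tumor left out. The hypoxia list as a whole was highest in tumor 2, with a score of 0.73, and Car9 was at 4.61 to 12.5 CPM, highest in tumor 2. Of the 13 genes Bnip3 and Vegfa were called (15.4%, against 5.34% of all genes), with 4 called without tumor 4, 1 when any of tumors 1, 3, 5, 6, 7 and 8 was left out, and Vegfa not called with the looser filter. Among the 13, all but Vegfa and Eno1 were highest in tumor 2. In the immediate early list Dusp1 and Egr1 were called (22.2% of 9, against 5.34% of all genes), at 12 to 67.4 CPM and 37.9 to 111 CPM, and Fos, at 15.5 to 46.7 CPM, was not. Without tumor 8, 0 of the 9 were called, 1 was called without tumor 1, 3, 5 or 7, and Egr1 was not called with the looser filter.

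Of 19 cell cycle genes, 2 were called (10.5%, against 5.34% of all genes), and 1 was called without tumor 4 and after the GC and length correction. Mki67, the antigen used to count dividing cells, was at 675, 195, 690, 141, 826, 710, 647 and 979 CPM in tumors 1 to 8 (adjusted p = 4.33e-05), and Bub1, a spindle checkpoint kinase, was lowest in tumor 4 at 16.3 CPM. Both were in the module of 274 genes that was lowest in tumor 4. The other 17 were not called, and Cdk1, for example, was at 153 to 211 CPM. With Mki67 as the reference, 2051 genes (15.5%) rose and 1088 (8.21%) fell. Those with the smallest p that rose were Cenpe, Cenpf, Rif1, Knl1 and Tpr, which act on chromosomes and nuclear pores, and those that fell were Jund, Marcksl1, Tor2a, Necap2 and Itm2c. Of 18 other cell cycle genes 3 rose with Mki67, a share near that of all genes. Without tumor 4, 730 rose and 419 fell, and after correction of each library for GC content and length 820 rose and 771 fell, of which 991 were among the first 3139.

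Grouping the 708 genes by their profile gave 8 modules. The largest, of 274 genes, was lowest in tumor 4 at a mean z-score of -2.01. Its genes were long and poor in GC: the median transcript length was 5404 bases and the median GC content 40.3%, against 3014 bases and 49.6% over all tested genes. After correction of each library for GC content and length 47 of the 274 were called, and without tumor 4, 51. The next 3 modules kept their calls: 128 of 128, 115 of 115 and 72 of 72 genes after the correction. They held, in that order, the antibody and fat genes high in tumor 2, the muscle genes low in tumor 2, and, led by S100a9, Mmp13 and the globins, genes high in tumors 3 and 4. All 15 called fast-muscle genes fell in 1 module, and all 4 globins fell with S100a9 in another, under each of 4 ways of grouping. In the antibody and fat module, 57 of 128 genes were called without tumor 2. The smaller modules held 38, 31, 27 and 23 genes. The module of 27 was low in tumor 4 and was led by RP24-389J11.1, Cpa3, a mast cell protease, Il33, Hmcn1 and Cd163, and 14 of its genes were called without that tumor and 21 after the correction. Its median length was 4365 bases and its median GC content 41.3%. Cpa3 was at 1.68 CPM in tumor 4 and 13.4 to 38.7 CPM elsewhere, and without tumor 4 no mast cell gene was called.

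Processed pseudogenes, copies of spliced RNA inserted in the genome, supplied 59 of 1304 tested genes called (4.52%), against 5.34% over all genes, and 8 of the top 20. Gm12715, on chromosome 4 from 103563402 to 103564529 (GRCm38), was at 1013 CPM in tumor 5 and 12.5 to 20.8 CPM in the other 7. Of its 50-base windows, 90.2% also occur in Actg1, the gamma actin gene, which stayed at 2020 to 3160 CPM. Rps3a2 was at 534 CPM in tumor 2, 697 CPM in tumor 5 and 15.5 to 27.9 CPM in the others, and 76.7% of its windows occur in the ribosomal gene Rps3a1. Rps3a3 followed it at 350 and 476 CPM in the same tumors. Gm3756 was at 340 CPM in tumor 6 and at most 9.06 CPM elsewhere, and Rpl17-ps5 at 622 CPM in tumor 8 and 9.82 to 98.6 CPM elsewhere. Gm13167, Gm13232 and Gm13237 share 98.5% to 100% of their windows with other genes. Reads of 50 bases cannot be placed with certainty among such copies, so these values are uncertain, and how the mapping treated them was not tested.

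Genes on the Y chromosome were read in all 8 tumors although the hosts were female. Ddx3y was at 22.6, 10.6, 27.1, 5.09, 27.3, 12.4, 8.96 and 18.3 CPM in tumors 1 to 8 and was called (adjusted p = 0.0121). Tumors 4 and 7 were lowest. It was not called without tumor 3, 4 or 5, with the looser filter, or after the GC and length correction. Kdm5d, Uty and Eif2s3y were not called, and Kdm5d ranged from 3.16 CPM in tumor 7 to 10.3 CPM in tumor 5.

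Single genes for 17 lists were then correlated in pairs. None of the 136 pairs passed adjustment with an exact permutation test over all orders of the tumors, where 24 had an unadjusted p under 0.05. The smallest exact p belonged to Ckm and Car9, which ran opposite, with Pearson r = -0.874 (exact permutation p = 0.00149, adjusted p = 0.102) and Spearman rho = -0.881 (exact permutation p = 0.00724). Without tumors 2 and 8, which lay farthest from the median of Ckm, r was -0.827. Cd3e and H2-Aa rose together with r = 0.932 (exact permutation p = 0.00181, adjusted p = 0.102), rho = 0.857 (exact permutation p = 0.0107), and r = 0.739 without tumors 4 and 8. Hbb-bs and Cd3e had r = 0.847 (exact permutation p = 0.00402, adjusted p = 0.102), rho = 0.952 (exact permutation p = 0.00114), and r = 0.883 without tumors 6 and 8. Jchain and C1qa had r = 0.867 (exact permutation p = 0.00451, adjusted p = 0.102), rho = 0.929 (exact permutation p = 0.00223), and r = 0.686 without tumors 2 and 8. Cd3e and Cd8a had r = 0.912 (exact permutation p = 0.00352, adjusted p = 0.102). For Ncr1 and Ifit1 r was 0.893 (exact permutation p = 0.00419, adjusted p = 0.102).

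Several markers of bordering tissues were at or near 0. Sftpa1 and Sftpb of alveolar cells stayed at or under 0.332 CPM, while Napsa and Ager of the same list were at 9.21 to 29.4 and 1.44 to 2.19 CPM and were not called. Bpifa1 of the airway was at 0, and Scgb1a1 reached 1.22 CPM in tumor 5. Cyp2f2, an airway enzyme, reached 6.2 CPM in tumor 2. Alb of the liver stayed at or under 0.0549 CPM. Serpina1a of the liver list reached 5.16 CPM in tumor 2. Krt5 of epidermis was at or under 0.0549 CPM in all 8 tumors, while Krt14 reached 0.987 CPM in tumor 2 and Krt10 was at 1.08 to 1.77 CPM. None of the 4 Schwann cell genes in the main test was called. Pecam1, shared by all endothelium, was at 44.8 to 76.9 CPM, and Col1a1, a fibroblast collagen, at 1060 to 3640 CPM, and neither was called (adjusted p = 1 and 0.0543).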

How the data were processed

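RNA of 8 AB1 IPL tumors was sequenced as 50 bp single-end reads. The authors ran bcl2fastq 1.8.4 and HISAT2 2.0.4, per the labels' processing notes, and deposited raw gene counts made with SummarizeOverlaps. The study's methods name the genome as mm11, a name that could not be matched to a known build, and the annotation is not given in the sources used here. Of 39676 gene IDs, 39495 matched GENCODE M21 (GRCm38), which gave types and coordinates. All 8 columns were mapped by title, with 0 per-sample columns mapped to no sample. Total counts were 17212485 to 20649645, which limits low genes.

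Counts were filtered with filterByExpr and scaled by TMM in edgeR 4.0.16 (R 4.3.3). A 1-group model gave the trended dispersion, and a gene was called variable where its deviance against that trend had a Benjamini-Hochberg adjusted p under 0.05 (7 degrees of freedom). Genes following a reference gene were tested with limma 3.58.1 on log2 CPM (prior count 2) with robust moderation. DESeq2 1.42.0 was an alternative. Called genes were grouped into 8 modules by Ward clustering, and pairs were tested by exact permutation, two-sided. The tests were tested on simulated data: of genes simulated at 5 and 15 times the trend dispersion, 60% and 94.9% were called. Of the other genes, simulated exactly at the trend, 0.0234% were called. The simulation left out scatter of genes around the trend, so it cannot check false calls under such scatter. The labels give 8 separate samples. The p-values of variable genes measure departure from the fitted trend, which was taken as known for genes of a level. Those of pairs and reference genes measure association across the samples.

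Members and lists were chosen with earlier results of these data known. Named were the 20 genes with the largest ratio of own to trend dispersion, up to 4 called genes and a reference gene per list, the leading 5 genes per module and per direction of each reference gene, and members of small counts. Genes at or near 0, genes from the looser filter and other examples were named after their values were seen. Alternatives were other scalings, filters, tools, a GC and length correction and each tumor left out. The other tumors of the series were not used here.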

Additional observations from a re-analysis of the deposited data

Results flagged for a closer look

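A value was picked out where the gap between the most extreme tumor and its nearest neighbor, divided by the range over the 8 tumors, exceeded Dixon's 95% critical value. Chance alone picks out about 1 in 20 groups, and 7 of 41 list scores, 4 of 35 genes and 1 of 2 library properties were picked out. That rate does not hold for the genes, since 20 of the 35 were chosen for their spread, Gm12715, Gm3756 and Saa3 among them. Nor does it hold for the list scores, since the lists were drawn up with earlier results of these data known. Tumor 2 stood high in the scores of mesothelium (0.745), epidermis (0.689), macrophage (0.655) and serous cavity macrophage (0.615) and in Saa3 (0.549). A score took in genes with at least 10 counts over the 8 tumors, so some members entered mainly through 1 tumor. In mesothelium, Muc16 was at 4.55 CPM in tumor 2 with a median of 0, and Upk3b at 32.4 with a median of 0.137 CPM. Epidermis averaged 2 genes, and Krt14 was at 0.987 CPM in tumor 2 with a median of 0.0528 CPM. Such members had to differ, so the flags of these lists are a description only. Tumor 8 stood low in the score of MHC class II (0.617) and in H2-Aa (0.599). Tumor 1 stood high in the score of brown adipocyte (0.638), and tumor 4 stood low in the score of mast cell (0.583). The brown adipocyte score averaged 3 genes and has the same limit as mesothelium and epidermis. Its member Ucp1 was at 7.84 CPM in tumor 1 with a median of 0.188 CPM, while Elovl3 and Ppargc1a were highest in tumor 5. Tumor 5 stood high in Gm12715 (0.884) and tumor 6 in Gm3756 (0.777). Tumor 4 also stood high in the level of GC-rich relative to GC-poor genes (0.601). The part of RNA or library quality in these values was not tested.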

How the results depend on the processing

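The number of variable genes, 708, was 0 by limma on the spread of log2 CPM, 123 by DESeq2 dispersion outliers, 1105 with at least 10 counts in at least 1 tumor, 495 of them among the 708, and 551 to 727 with single tumors left out. With no filter on low counts it was 1050, of which 434 were among the 708. Genes following Ckm numbered 58 to 363 with single tumors left out, those following Jchain 1 to 104, those following Cxcl9 0 to 10 and those following Mki67 1149 to 3078. After the GC and length correction, added after the data were seen, 755 genes followed Jchain and 1591 followed Mki67. With DESeq2 size factors 2 genes followed Cxcl9. Correlated pairs numbered 0 to 1 with single tumors left out, 1 without tumor 3 and 1 without tumor 8. The number of lists with a range of at least 2 log2 units, 18, was 14 to 19 under the alternatives run, and all 15 fast-muscle genes shared 1 module under each grouping. Single ranges moved more: leaving out 1 tumor took mesothelium from 5.27 to 1.39 log2 units, mast cell from 3.03 to 1.2, brown adipocyte from 2.26 to 0.815, serous cavity macrophage from 2.19 to 0.842, MHC class II from 2.01 to 0.768 and fast muscle from 5.96 to 2.95. It also took epidermis from 1.85 to 0.666, macrophage from 1.04 to 0.354, T cell from 1.87 to 1.02 and CD8 and effector genes from 2.03 to 1.18. The cause of these changes was not tested. No paired analysis was possible because only 1 group of tumors was analysed.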
